A study of Olea europaea with 12 samples.

Results

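The genes described here encode, by name, the core enzymes of phenylpropanoid metabolism in the flesh of the ripening olive fruit. They were chosen from the gene descriptions of the deposited table by the names of the pathway's enzymes, and 94 of the 51008 genes matched. Of these, 55 were listed at 1 FPKM or more by at least 3 of the 12 libraries and were tested, among 26131 tested genes in all. FPKM is the number of sequenced fragments scaled for transcript length and library total. The choice used no difference between ages, but a gene expressed at only 1 age passes such a filter only because it is high there, so the 55 are the detected members and not the whole family.

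Phenylpropanoid metabolism starts when phenylalanine ammonia-lyase (PAL) removes ammonia from phenylalanine to give cinnamate. Cinnamate 4-hydroxylase (C4H) and 4-coumarate-CoA ligase (4CL) then make coumaroyl-CoA, from which lignin precursors, lignans, hydroxycinnamate esters and flavonoids branch off. Hydroxycinnamoyl transferases (HCT) and caffeoylshikimate esterase (CSE) pass the acid through its shikimate ester to caffeate. Caffeoyl-CoA O-methyltransferase (CCoAOMT) methylates the ring. Cinnamoyl-CoA reductase (CCR) and cinnamyl alcohol dehydrogenase (CAD) reduce the side chain to the alcohols from which lignin is built. In olive flesh the phenols with a phenylalanine-derived part include verbascoside, a caffeoyl ester, and in ripe fruit the anthocyanins that colour it.

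RNA was sequenced from the mesocarp of the olive Olea europaea, cultivar Koroneiki, grown outdoors in Western Greece. Fruits of like colour, size and shape were taken at 4 ages, 17, 21, 26 and 30 WAF (weeks after flowering), and each age has 3 libraries named A, B and C. No treatment or genotype differed between ages. The full library names begin with Sep, Oct, Nov and Dec in order of age, so fruit age cannot be told apart from season. The labels do not say that the 3 libraries of an age came from separate trees, so the spread behind each p-value is that between these samples and may be technical. Summed FPKM per library ranged over 790578 to 845585, and read depth is unknown. Differences between ages were tested with limma after adding 1 to each FPKM and taking log2, a scale on which changes of genes with low FPKM come out too small. P-values are adjusted by the Benjamini-Hochberg method over the 26131 tested genes, and a gene is said to have risen or fallen where the adjusted p was under 0.05. Means are given ± SD over 3 libraries (n = 3). In RNA from a whole tissue, fewer cells of a type and less RNA per cell cannot be told apart.

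Among the 55 detected members falls outnumbered rises from 17 to 21 WAF, and rises outnumbered falls from 26 to 30 WAF. From 17 to 21 WAF 13 rose and 29 fell (52.7%), where 22.2% of all tested genes rose and 35.9% fell. With median-of-ratios scaling 14 rose and 23 fell at this step. The shares of all tested genes are those of the FPKM as deposited and are not given under that scaling. From 21 to 26 WAF 24 rose (43.6%) and 16 fell, against 23.2% and 32.9% of all tested genes. From 26 to 30 WAF 33 rose (60.0%) and 6 fell, against 42.0% and 24.3%. Under median-of-ratios scaling the split of this last step was 29 rises to 12 falls. That scaling also moved the median log2 change of all tested genes at this step, from 0.1 as deposited to 0.011. Over the whole period, from 17 to 30 WAF, 31 rose (56.4%) and 16 fell, against 34.9% and 38.9%.

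The median log2 change of the detected members was -0.18, 0.09 and 0.37 over the 3 steps and 0.33 from 17 to 30 WAF. The medians of all tested genes were -0.07, -0.06, 0.10 and -0.03. The size of change, as the median absolute log2 change from 17 to 30 WAF, was 0.68 for the members and 0.37 for all tested genes. In limma's F test over the 4 ages 51 of the 55 members changed (92.7%), close to the 89.9% of all tested genes, so that change as such was not particular to them. The remaining 4 were 2 CSE-named genes (LOC111370562 and LOC111390925), the CCR-like gene LOC111376621 and the CAD-like gene LOC111383259, none of which was above 5 FPKM in any library.

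**Figure D1:**
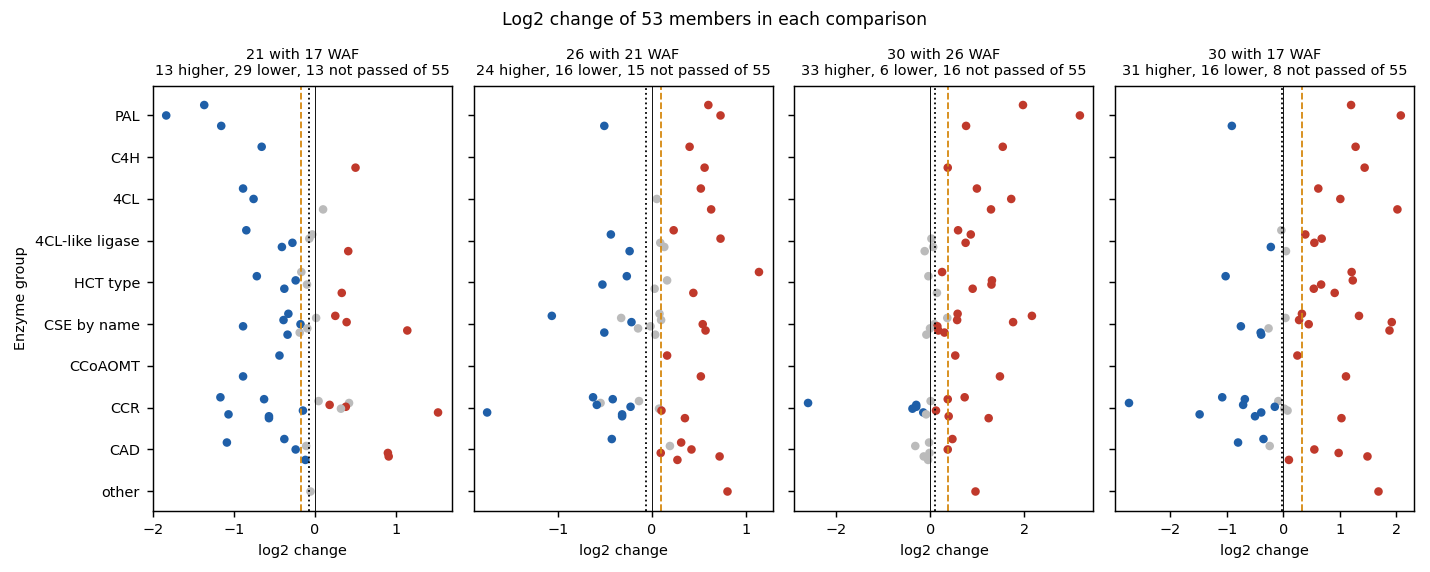
Log2 change on the log2(FPKM + 1) scale (horizontal axis) of 53 of the 55 detected members by enzyme group (vertical axis) in the 4 comparisons, with red points for genes that rose, blue for genes that fell and grey for genes that did not pass the test. The dashed line is the median of all 55 members, which the counts above each panel also cover, and the dotted line that of all tested genes, and the horizontal scales differ between panels. All 3 PAL genes are blue in the first panel and red in the third. CCR is the group with most falls from 17 to 30 WAF (8 of 12, against 38.9% of all tested genes).

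A fall from 17 to 21 WAF followed by a rise from 26 to 30 WAF was the most frequent course. It was shown by 22 of the 55 members (40.0%), against 18.9% of all tested genes. With median-of-ratios scaling 17 members showed it, and the share of all tested genes under that scaling is not given. Between these steps 10 of the 22 rose from 21 to 26 WAF, 5 fell and 7 did not pass. The 22 hold all 3 PAL genes, both CCoAOMT genes, 2 of 3 4CL genes, 1 of 2 C4H genes and 5 of 12 CCR genes. Only 3 members rose at every step, among them the C4H gene LOC111393218 and the CSE-named gene LOC111394265, whose last step did not pass with median-of-ratios scaling. The course of a rise to 21 WAF and 2 falls after it was shown by 3 members, all of them CCR genes. By highest mean, 29 of the 55 (52.7%) peaked at 30 WAF and 14 at 17 WAF, while 21 and 26 WAF were the peak of 6 each. Of all tested genes, 35.7% peaked at 30 WAF and 35.4% at 17 WAF.

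**Figure D2:**
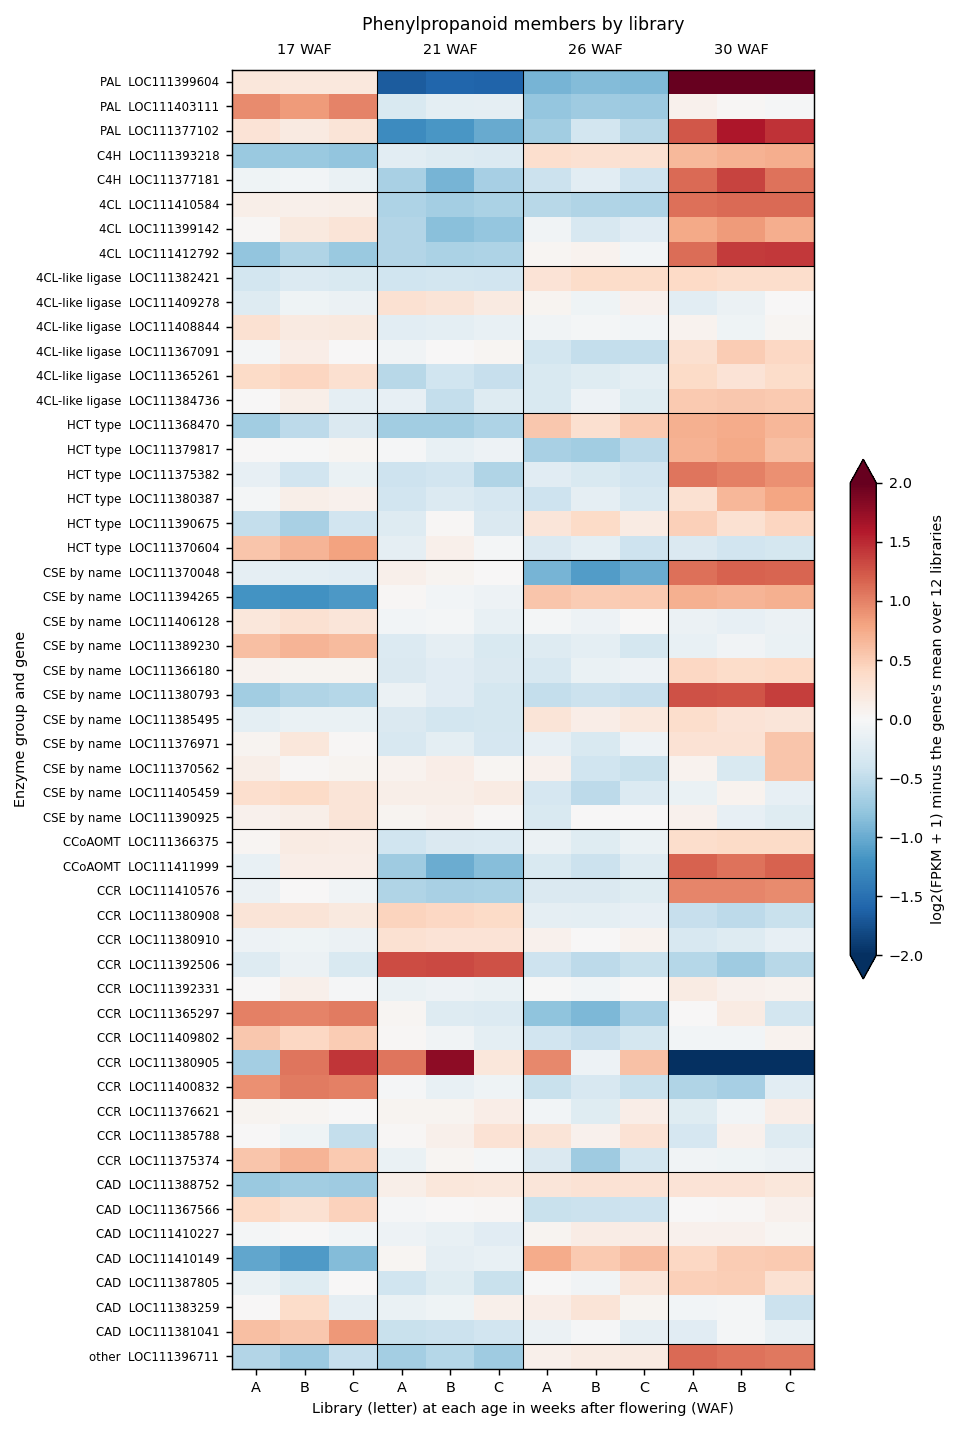
Each cell gives the log2(FPKM + 1) of 1 of 53 members (row, grouped by enzyme) in a library (column, letters A to C at each age) minus that gene's mean over the 12 libraries, red above it and blue below, with the darkest colours also standing for values past the ends of the scale. The libraries of an age resemble each other in most rows, the PAL rows are blue at 21 WAF and red at 30 WAF except for LOC111403111, and LOC111380905 is listed at 0 in the 3 libraries of 30 WAF.

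Summed expression of PAL, the entry enzyme, was low at 21 and 26 WAF and highest at 30 WAF. At 30 WAF 1 gene, LOC111399604, made up 72.8% of the PAL sum, against 34.1, 21.4 and 41.5% at 17, 21 and 26 WAF. LOC111399604 had 8.15, 8.03 and 8.04 FPKM in libraries A, B and C at 17 WAF and 1.46, 1.61 and 1.56 FPKM at 21 WAF. It then had 3.10, 3.30 and 3.23 FPKM at 26 WAF and 36.4, 38.1 and 37.4 FPKM at 30 WAF. No 2 ages overlapped, and the 3 libraries at 30 WAF stood far above all others. Its fall to 21 WAF was -1.84 on the log2 scale (SE 0.045, adjusted p = 4.8e-12), and its rise from 26 to 30 WAF was 3.18 (SE 0.045, adjusted p = 8.6e-15), an 11.6-fold difference in mean FPKM. On the log2(FPKM + 1) scale that rise was the largest change of any member in any of the 4 comparisons. In mean FPKM, LOC111396711, a gene with low values that passed the filter only through 30 WAF, differed more, 15.9-fold from 17 to 30 WAF.

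The other PAL genes differed from it in how they ended. LOC111403111 had 13, 12.1 and 13.5 FPKM at 17 WAF, 4.89, 5.36 and 5.42 FPKM at 21 WAF, 3.26, 3.42 and 3.38 FPKM at 26 WAF and 6.66, 6.33 and 6.12 FPKM at 30 WAF. It thus had the highest mean of the PAL genes at 17, 21 and 26 WAF, at 26 WAF by little (3.35 against 3.21 FPKM for LOC111399604). Its values at 30 WAF stayed below all 3 libraries of 17 WAF. From 17 to 30 WAF it fell by 0.91 on the log2 scale (SE 0.056, adjusted p = 7.2e-09), whereas LOC111399604 rose by 2.08 (SE 0.045, adjusted p = 1.6e-13). LOC111377102, annotated as a partial transcript, had means of 2.71 ± 0.127, 0.433 ± 0.127, 1.18 ± 0.256 and 7.57 ± 1.08 FPKM in order of age. Its course followed that of LOC111399604, with a rise of 1.97 from 26 to 30 WAF (SE 0.11, adjusted p = 5.0e-09). LOC111399604 and LOC111403111 have the same best protein match in the file, and the estimation of values may have split reads between such copies. The summed FPKM of the 3 PAL genes was 23.7 ± 0.828, 7.20 ± 0.467, 7.74 ± 0.435 and 51.2 ± 1.76 at 17, 21, 26 and 30 WAF.

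C4H, the cytochrome P450 that hydroxylates cinnamate, did not follow PAL. The C4H gene LOC111393218 had 117, 117 and 113 FPKM at 17 WAF, 169, 163 and 161 FPKM at 21 WAF, 246, 243 and 242 FPKM at 26 WAF and 307, 316 and 324 FPKM at 30 WAF. It rose at each step without overlap between ages, by 0.50, 0.56 and 0.37 on the log2 scale (SE 0.028 each, highest adjusted p = 1.1e-07), and was 2.73-fold higher at 30 than at 17 WAF. Of the 55 members it was among the 3 most abundant. The second C4H gene, LOC111377181, had 5.18 ± 0.196, 2.93 ± 0.402, 4.17 ± 0.429 and 14.1 ± 1.52 FPKM at the 4 ages. It fell to 21 WAF (log2 change -0.66, SE 0.090, adjusted p = 4.1e-05) and rose at both later steps, so this minor copy had the course of PAL and the major copy did not. The 2 genes share their best protein match.

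All 3 detected 4CL genes, whose enzyme activates coumarate as its CoA ester, were highest at 30 WAF. The leading gene, LOC111410584, had 36.8, 36.4 and 36.6 FPKM at 17 WAF, 21.6, 20.7 and 21.3 at 21 WAF, 22.6, 21.9 and 21.6 at 26 WAF and 73.4, 75.0 and 75.1 FPKM at 30 WAF. The libraries of 21 and 26 WAF overlapped, and those of 30 WAF lay clear above the rest. It fell to 21 WAF (log2 change -0.76, SE 0.030, adjusted p = 2.9e-10), did not pass the test from 21 to 26 WAF (0.05, SE 0.030, adjusted p = 0.18) and rose from 26 to 30 WAF (1.72, SE 0.030, adjusted p = 5.2e-14). LOC111399142 had 4.76 ± 0.472, 2.11 ± 0.278, 3.47 ± 0.394 and 7.85 ± 0.381 FPKM, and unlike the leading gene it passed as higher at 26 than at 21 WAF (log2 change 0.52, adjusted p = 0.00023). The difference between the 2 genes was not tested. LOC111412792 had 0.637 ± 0.110, 0.750 ± 0.0265, 1.71 ± 0.125 and 5.67 ± 0.717 FPKM, and its rise from 17 to 30 WAF (log2 change 2.02, SE 0.089, adjusted p = 2.5e-10) was the largest among the 4CL genes.

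Genes named as 4CL-like form a separate group of acyl-activating ligases, and their names do not give the 4CL reaction. Of the 6 detected, 4 carry the KEGG entry of OPC-8:0 CoA ligase, an enzyme of jasmonate synthesis. From 17 to 30 WAF 3 of the 6 rose, 1 fell and 2 did not pass. Among all tested genes 34.9% rose and 38.9% fell. LOC111382421, the most abundant, changed mainly in a single step, with 24.3 ± 0.842 and 23.1 ± 0.272 FPKM at 17 and 21 WAF and 38.9 ± 1.38 and 39.5 ± 0.820 FPKM at 26 and 30 WAF. Its rise from 21 to 26 WAF was 0.73 on the log2 scale (SE 0.036, adjusted p = 4.2e-09). LOC111409278 was highest at 21 WAF, at 33.0 ± 1.49 FPKM, and had 24.7 ± 1.67 and 25.5 ± 1.98 FPKM at the ends of the period (log2 change 0.05, SE 0.066, adjusted p = 0.52). LOC111408844 had 10.4 ± 0.600 FPKM at 17 WAF and less, 8.80 ± 0.574 FPKM, at 30 WAF (log2 change -0.22, SE 0.053, adjusted p = 0.0025). The other 3 had means of 0.563 to 8.90 FPKM, and over the period 2 of them rose and 1 did not pass.

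**Figure D3:**
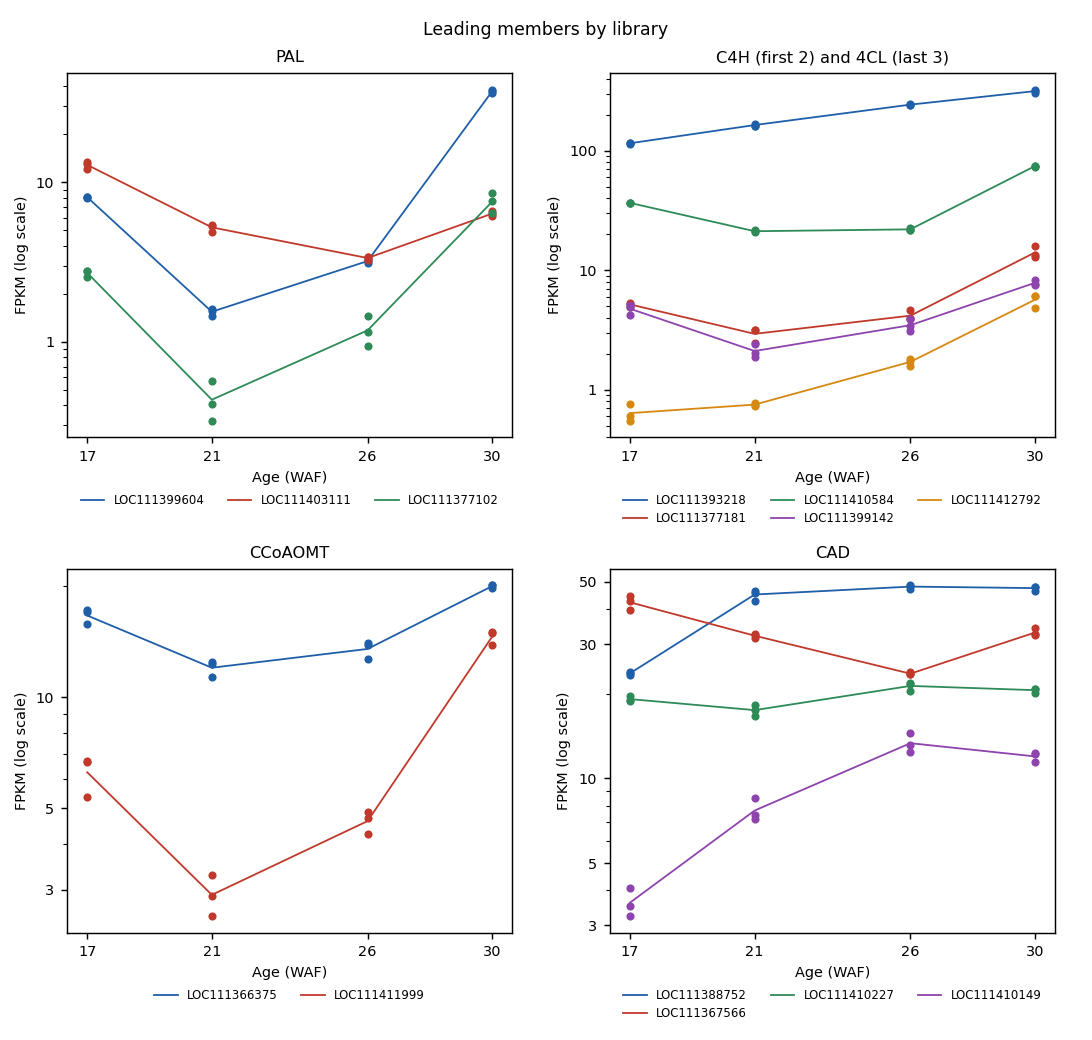
FPKM on a log axis (vertical) against age in weeks after flowering (horizontal) for the PAL genes, the C4H and 4CL genes, the CCoAOMT genes and the 4 most abundant CAD genes, with a point for each library and a line through the means of 3 libraries. The PAL gene LOC111399604 goes from 1.54 FPKM at 21 WAF to 37.3 FPKM at 30 WAF, the C4H gene LOC111393218 rises throughout, and the CAD genes LOC111388752 and LOC111367566 move in opposite directions from 17 to 21 WAF.

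Transcript of the HCT-type acyltransferases was low. HCT-type genes were the largest group matched by name, with 17 genes, and 11 of these stayed below the filter. The 6 detected ones summed to 10.3 ± 1.06, 7.91 ± 0.391, 11.4 ± 0.312 and 21.0 ± 0.392 FPKM at 17, 21, 26 and 30 WAF. This sum also covers genes named for transfer to spermidine, so it is not that of the shikimate ester step alone. From 17 to 30 WAF 5 of the 6 rose and 1 fell, against 34.9% and 38.9% of all tested genes. The shikimate HCT gene LOC111375382, named for the enzyme that makes coumaroyl shikimate, had 1.48, 1.14 and 1.54 FPKM at 17 WAF, 1.10, 1.13 and 0.84 at 21 WAF, 1.39, 1.25 and 1.13 at 26 WAF and 4.86, 4.63 and 4.24 FPKM at 30 WAF. The 30 WAF libraries stood well above all others (26 to 30 WAF: log2 change 1.31, SE 0.092, adjusted p = 5.6e-08), and its fall to 21 WAF (adjusted p = 0.042) was lost when any 1 of 6 libraries was left out, among them A and C of both ages compared. LOC111379817 was lowest at 26 WAF, at 1.14 ± 0.135 FPKM, and highest at 30 WAF, at 4.26 ± 0.265 FPKM (log2 change 1.30, SE 0.071, adjusted p = 4.4e-09). LOC111368470, named for the transferase that joins hydroxycinnamates to spermidine, rose a step earlier, from 2.2 ± 0.101 FPKM at 21 WAF to 6.05 ± 0.568 at 26 WAF (log2 change 1.14, SE 0.092, adjusted p = 4.1e-07). The 1 gene that fell, LOC111370604, went from 2.14 ± 0.270 to 0.540 ± 0.0557 FPKM over the period and was chosen after its values were seen. It passed the filter only through 17 WAF, where it was highest. The 2 remaining genes of the group, both named for spermidine, rose by 0.54 and 0.91 on the log2 scale from 17 to 30 WAF and had means of 0.523 to 2.38 FPKM.

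The name caffeoylshikimate esterase covers 11 detected genes, of which only LOC111366180 and LOC111376971 carry the KEGG entry of that enzyme. The other 9 carry the entry of acylglycerol lipase, a related esterase of lipid breakdown, so their place in the phenylpropanoid pathway rests on the name alone. The pair with the matching entry followed the common course. LOC111366180 had 17.4, 17.4 and 17.4 FPKM at 17 WAF, 13.5, 14.1 and 13.4 at 21 WAF, 13.1, 15.1 and 15.4 at 26 WAF and 22.5, 21.6 and 22.2 FPKM at 30 WAF, with an overlap between 21 and 26 WAF alone. It fell to 21 WAF (log2 change -0.33, SE 0.051, adjusted p = 0.00011) and rose from 26 to 30 WAF (0.58, SE 0.051, adjusted p = 5.3e-07). LOC111376971 had 12.7 ± 1.06, 9.44 ± 0.580, 10.2 ± 0.797 and 15.6 ± 1.77 FPKM and passed in the same directions at the same steps. Their sum rose only from 30.1 ± 1.05 to 37.7 ± 1.90 FPKM between 17 and 30 WAF, while that of the other 9 rose from 215 ± 2.69 to 409 ± 5.89 FPKM.

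The lipase-annotated genes were more abundant and moved apart from each other. LOC111370048 had 74.0, 73.4 and 72.5 FPKM at 17 WAF, 90.7, 87.0 and 85.0 at 21 WAF, 43.6, 38.4 and 41.8 at 26 WAF and 181, 192 and 190 FPKM at 30 WAF. Its lowest age was thus 26 WAF, without overlap with any other age, and its rise from there was 4.55-fold (log2 change 2.16, SE 0.043, adjusted p = 1.7e-13). LOC111394265 rose from 29.4 ± 0.609 FPKM at 17 WAF to 66.2 ± 2.95, 98.8 ± 2.01 and 111 ± 1.61 FPKM, most of it before 26 WAF. LOC111380793 stayed between 7.03 and 10.9 FPKM in the 9 libraries up to 26 WAF and reached 30.3, 30.1 and 32.7 FPKM at 30 WAF (log2 change 1.76, SE 0.058, adjusted p = 2.8e-11). Falling members were LOC111406128, from 41.5 ± 1.27 to 31.4 ± 0.508 FPKM over the period, and LOC111389230, from 47.2 ± 1.5 to 27.6 ± 0.726 FPKM. Over all 11 CSE-named genes 6 rose, 3 fell and 2 did not pass from 17 to 30 WAF. Among all tested genes 34.9% rose and 38.9% fell. The 4 CSE-named genes not described singly had means of 0.657 to 16.0 FPKM.

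Both CCoAOMT genes, whose enzyme methylates caffeoyl-CoA, fell to 21 WAF and rose at the 2 later steps. LOC111411999 had 5.37, 6.69 and 6.71 FPKM at 17 WAF, 3.29, 2.55 and 2.89 at 21 WAF, 4.70, 4.25 and 4.89 at 26 WAF and 14.9, 13.9 and 15.0 FPKM at 30 WAF. Its ages did not overlap, and it rose by 1.48 from 26 to 30 WAF (SE 0.087, adjusted p = 9.5e-09). LOC111366375 changed less, with 16.7 ± 0.792, 12 ± 0.576, 13.5 ± 0.695 and 20.0 ± 0.202 FPKM. Its rise from 21 to 26 WAF (log2 change 0.16, SE 0.049, adjusted p = 0.016) did not pass without library A of 21 WAF, A of 26 WAF or C of 26 WAF.

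The CCR group, whose enzyme commits the CoA esters to monolignols, was higher in sum at 30 than at 17 WAF but lower in most of its genes. LOC111410576, a CCR-like gene named SNL6, had 301, 327 and 309 FPKM at 17 WAF, 214, 207 and 211 at 21 WAF, 267, 266 and 275 at 26 WAF and 645, 641 and 632 FPKM at 30 WAF. It was the most abundant member of all, and it fell to 21 WAF (log2 change -0.57, SE 0.031, adjusted p = 6.0e-09) and rose 2.37-fold from 26 to 30 WAF (1.24, SE 0.031, adjusted p = 1.4e-12). From 17 to 30 WAF it was the single CCR gene that rose, by 1.03 on the log2 scale (SE 0.031, adjusted p = 3.8e-12). Of the 12 CCR genes 8 fell and 3 did not pass. Over this period 34.9% of all tested genes rose and 38.9% fell. The summed FPKM of the group went from 631 ± 18.8 to 866 ± 2.58 FPKM over the period, and that of the other 11 genes from 319 ± 6.01 to 226 ± 5.56 FPKM. The share of LOC111410576 in the sum was 49.5, 35.6, 50.3 and 73.8% in order of age.

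Of the 8 falling CCR genes, 4 had their highest mean at 21 WAF, where LOC111410576 was lowest. LOC111380908 had 135, 135 and 128 FPKM at 17 WAF, 154, 150 and 147 at 21 WAF, 99.5, 98.01 and 100.1 at 26 WAF and 81.3, 77.8 and 82.0 FPKM at 30 WAF. Its fall over the period was -0.71 on the log2 scale (SE 0.031, adjusted p = 1.8e-10), with no overlap between ages. LOC111380910 had 95.0 ± 0.793, 124 ± 1.79, 106 ± 2.95 and 85.8 ± 4.69 FPKM and fell less (-0.15, SE 0.037, adjusted p = 0.0028). LOC111392506 had its 21 WAF libraries at 52.5, 52.6 and 51.0 FPKM against 12.2 to 19.0 FPKM in the 9 others. Its rise to 21 WAF (1.52, SE 0.057, adjusted p = 1.7e-10) and its fall to 26 WAF (-1.76, SE 0.057, adjusted p = 6.9e-11) were the largest changes of those directions among CCR genes with values above 0 throughout, whereas its last fall (adjusted p = 0.034) did not pass without library A or C of 26 WAF or B of 30 WAF.

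LOC111365297 and LOC111400832 lost most of their transcript by 26 WAF, and LOC111380905 was listed at 0 at the last age. LOC111365297 fell from 16.9 ± 0.355 to 6.97 ± 1.01 and 4.14 ± 0.428 FPKM and ended at 7.58 ± 1.55 FPKM (17 to 30 WAF: log2 change -1.08, SE 0.12, adjusted p = 3.2e-06). LOC111400832, also named SNL6, went from 9.22 ± 0.448 to 3.86 ± 0.215, 2.91 ± 0.202 and 2.70 ± 0.649 FPKM over the 4 ages (-1.48, SE 0.10, adjusted p = 2.1e-08). LOC111380905 was listed at 1.71, 8.16 and 10.8 FPKM at 17 WAF, 8.09, 14.1 and 4.11 at 21 WAF, 7.43, 3.06 and 5.49 at 26 WAF and 0 in all 3 libraries at 30 WAF. Its libraries differed severalfold within an age, and it shares its best protein match with LOC111380908 and LOC111380910, so its values are uncertain where reads were split between these copies. Its fall from 17 to 30 WAF passed the test (adjusted p = 0.00023), and no fold is given against values listed at 0. Of the 5 CCR genes not described singly, 2 fell and 3 did not pass over the period, with means of 1.77 to 22.2 FPKM.

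**Figure D4:**
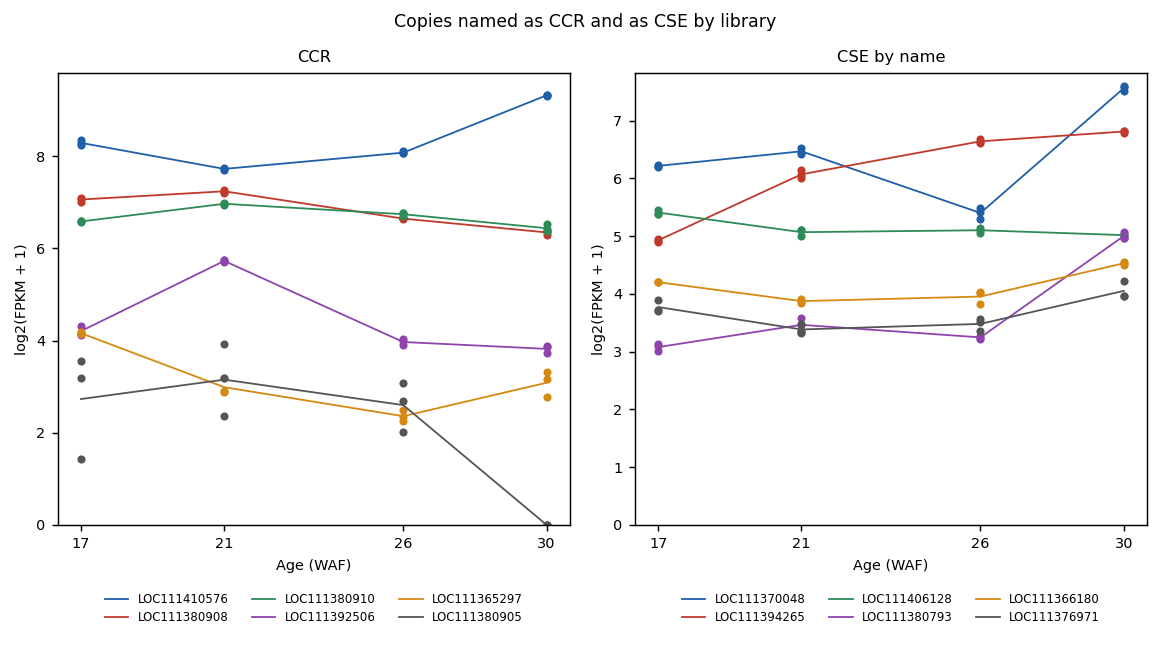
Values of 6 CCR genes (left) and 6 genes named as CSE (right) on the log2(FPKM + 1) scale (vertical) against age in weeks after flowering (horizontal), with a point for each library and a line through the means of 3 libraries. LOC111410576 is lowest at 21 WAF, at 211 FPKM, and highest at 30 WAF, at 639 FPKM, while LOC111380908, LOC111380910 and LOC111392506 peak at 21 WAF and LOC111380905 ends at 0.

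CAD, which makes the monolignols themselves, changed little in sum, from 101 ± 2.30 to 126 ± 1.40 FPKM, while its members moved apart. LOC111388752 had 23.3, 24.0 and 23.7 FPKM at 17 WAF, 42.9, 46.6 and 45.8 at 21 WAF, 47.2, 48.7 and 48.5 at 26 WAF and 48.1, 48.0 and 46.5 FPKM at 30 WAF. Nearly all of its rise was made by 21 WAF (log2 change 0.90, SE 0.035, adjusted p = 2.3e-10), and the small rise after it (0.09, adjusted p = 0.037) did not pass without library A of 21 WAF or B or C of 26 WAF. LOC111410149 rose from 3.62 ± 0.427 to 7.69 ± 0.724 and 13.3 ± 1.06 FPKM and had 12 ± 0.50 FPKM at 30 WAF. LOC111367566 was the leading CAD gene at 17 WAF, with 42.3 ± 2.34 FPKM, and fell to 32.2 ± 0.560 and 23.6 ± 0.220 FPKM before it returned to 33.0 ± 1.03 FPKM at 30 WAF. It was lower at 30 than at 17 WAF (-0.35, SE 0.040, adjusted p = 4.5e-06). LOC111410227 stayed between 16.7 and 21.9 FPKM in all libraries, and its difference between 17 and 30 WAF (0.10, SE 0.041, adjusted p = 0.043) was lost when any 1 of 5 libraries was left out, among them A and C of 17 WAF and A and B of 30 WAF. The 3 remaining CAD genes had means of 0.620 to 8.71 FPKM, and over the period 1 rose, 1 fell and 1 did not pass.

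One detected gene is matched by name without being a core enzyme. LOC111396711, named for a malonyltransferase acting on a caffeoylated pelargonidin glucoside, an anthocyanin, rose from 0.173 ± 0.105 FPKM at 17 WAF to 2.76 ± 0.105 FPKM at 30 WAF (log2 change 1.68, SE 0.089, adjusted p = 1.6e-09). It was below 1 FPKM in the 6 libraries of 17 and 21 WAF. The gene passed the filter only through the 3 libraries of 30 WAF and library C of 26 WAF, the latter at 1.0 FPKM. Its rise and p-value therefore partly restate how it was selected.

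The summed transcript of the enzyme groups took different courses. That of C4H went up throughout, with 121 ± 2.26, 167 ± 4.29, 247 ± 2.06 and 330 ± 8.39 FPKM in order of age. PAL, 4CL, CCoAOMT, HCT-type and CSE-named genes went up mainly between 26 and 30 WAF, 4CL from 27.2 ± 0.896 to 88.0 ± 1.80 FPKM and CCoAOMT from 18.1 ± 1.0 to 34.6 ± 0.567 FPKM. The CCR sum fell to 535 ± 11.7 FPKM at 26 WAF and then rose to 866 ± 2.58 FPKM at 30 WAF. Sums over groups follow their leading genes and were not tested.

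**Figure D5:**
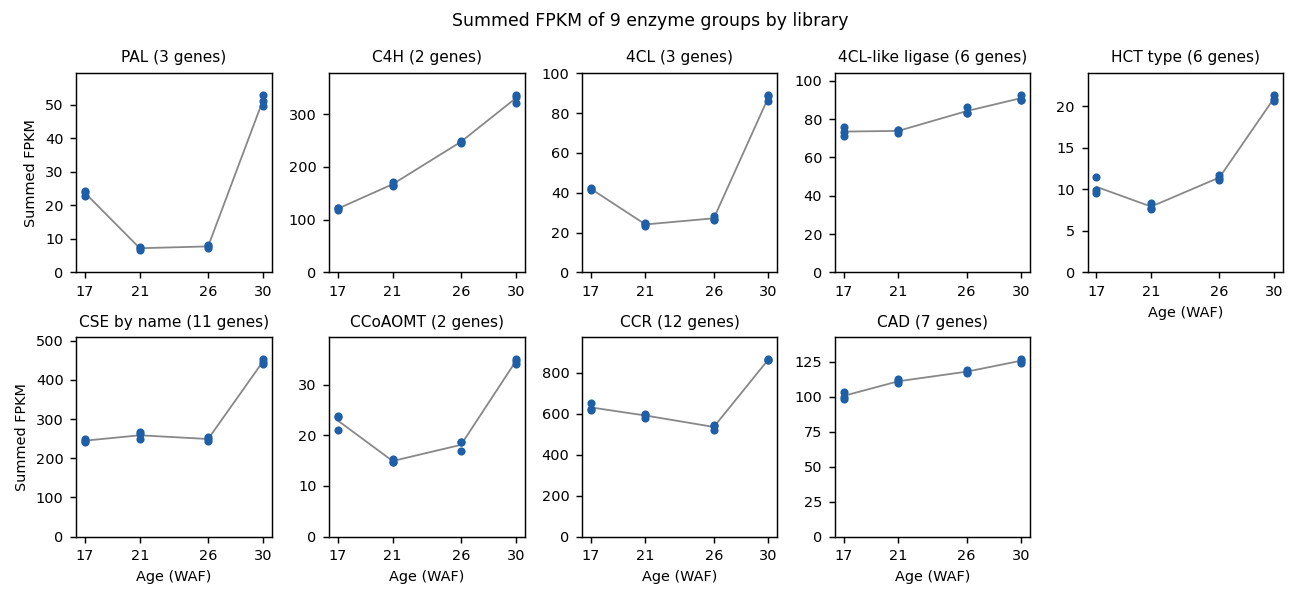
Summed FPKM (vertical, from 0, with a scale of its own in each panel) of the detected genes of 9 enzyme groups against age in weeks after flowering (horizontal), with a point for each library and a line through the means of 3 libraries. PAL and 4CL are low at 21 and 26 WAF and highest at 30 WAF, and C4H rises throughout.

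The annotation of the members bears on these counts. For 41 of the 55 the KEGG entry in the file is that of their enzyme group. For 14 it is not, the CSE-named and 4CL-like genes making up 13 of them. The match is by group and not by exact name. The 41 thus include HCT-type genes named for spermidine, which carry the entry of shikimate HCT, and 4CL-like genes with the 4CL entry. From 17 to 30 WAF 25 of the 41 rose, 12 fell and 4 did not pass, with a median log2 change of 0.54. Of the 14, 6 rose, 4 fell and 4 did not pass, with a median of 0.04. Of all tested genes 34.9% rose and 38.9% fell over this period, with a median of -0.03. A shared best protein match joins 23 of the 55 into 11 groups of copies. Copies of a pair could differ in direction, as the PAL genes above did.

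The 39 matched genes below the filter had means of at most 0.847 FPKM over the 12 libraries. Of these, 6 were listed at 0 in all 12 libraries, 34 reached 1 FPKM in none, and the highest single value was 1.41 FPKM. They include 1 PAL gene, 3 4CL genes, 4 CCR genes, 3 CAD genes and 11 HCT-type genes. In the reference gene order, 4 of these HCT-type genes (LOC111404589, LOC111404591, LOC111404592 and LOC111403793) lie within a few genes of each other. Nearest to the filter, LOC111370604, LOC111384736 and LOC111396711 passed with 4 libraries at 1 FPKM or more. Each passed only through the age where it was highest, 17 WAF for LOC111370604 and 30 WAF for LOC111384736 and LOC111396711. LOC111400547, LOC111404589 and LOC111397779 stayed out with 2 such libraries, the first 2 with means of 0.753 and 0.847 FPKM over the 12 libraries.

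Neighbouring parts of the pathway were counted from lists of gene names. The ring hydroxylases of the pathway are cytochromes P450 of the families 98A and 84A. All 3 detected genes of 6 moved in the directions of the PAL gene LOC111399604, but by less. Their log2 changes at the 3 steps were -0.81 to -0.13, 0.23 to 0.59 and 0.33 to 0.71, against -1.84, 0.73 and 3.18. Each fell to 21 WAF and rose at both later steps. Of all tested genes 35.9% fell to 21 WAF, and 23.2% and 42.0% rose at the later steps. Leading among the 3 was LOC111367389 (84A1, the hydroxylase before sinapyl units) with 81.0 ± 2.06, 45.7 ± 1.93, 69.4 ± 2.33 and 114 ± 4.22 FPKM. Of the 38 detected genes of 49 for shikimate and phenylalanine synthesis, which supplies PAL, 4 rose and 19 fell from 17 to 21 WAF, against 22.2% and 35.9% of all tested genes. From 26 to 30 WAF 17 rose and 4 fell, against 42.0% and 24.3%, and the list's median log2 change of 0.13 was near the 0.10 of all tested genes. Their leading gene LOC111381610, for the first step of the shikimate pathway, had 98.6 ± 0.667 FPKM at 17 WAF and 95.9 ± 1.94 FPKM at 30 WAF (log2 change -0.04, SE 0.025, adjusted p = 0.18). The flavonoid entry enzymes, chalcone synthase and chalcone isomerase, summed to 2.10 to 3.02 FPKM at 17 WAF and 293 to 304 FPKM at 30 WAF. All 4 detected genes of 6 rose at both steps after 21 WAF, where 23.2% and 42.0% of all tested genes rose.

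Genes named for lignan reductases, for dirigent proteins, which take part in monolignol coupling, or for isoflavone reductases went both ways. The last of these names is not that of a lignan enzyme, and the leading gene carries it. Of 43 matched genes 14 were detected, and 11 of the undetected ones were listed at 0 in all libraries. Among the 14, 5 rose and 6 fell from 17 to 21 WAF, against 22.2% and 35.9% of all tested genes, and 10 rose and 1 fell from 26 to 30 WAF, against 42.0% and 24.3%. Their leading gene, the isoflavone reductase-like LOC111385164, rose from 1380 ± 23.3 FPKM at 17 WAF to 1760 ± 45.5 FPKM at 26 WAF and had 1690 ± 41.0 FPKM at 30 WAF. The tyrosol branch was matched by names of amine oxidases, decarboxylases and polyphenol oxidases. From 17 to 30 WAF 3 of its 6 detected genes rose and 3 fell, against 34.9% and 38.9% of all tested genes. Its leading gene, the primary amine oxidase-like LOC111382233, had 64.9 ± 1.11 FPKM at 17 WAF and 103 ± 3.30 FPKM at 30 WAF (higher by 0.66 on the log2 scale, SE 0.032, adjusted p = 5.6e-10).

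Markers of other cell types were set beside these results. Of 30 genes that mark secondary walls of vessels and stone, 2 were detected, a laccase-4-like gene (LOC111404394) with a mean of 10.7 FPKM and a laccase-17-like gene (LOC111399734) with 4.21 FPKM. The defining cellulose synthases A 4, 7 and 8, MYB46, MYB83 and NAC 43 had means of at most 0.582 FPKM, and the whole list summed to 15.9 to 18.3 FPKM at 17 WAF and 13.8 to 17.2 FPKM at 30 WAF. Neither of the 2 tested genes passed from 26 to 30 WAF, with log2 changes of -0.17 (adjusted p = 0.065) for LOC111404394 and 0.33 (adjusted p = 0.069) for LOC111399734. Epidermis markers, 18 detected of 34, gave 12 rises and 1 fall from 26 to 30 WAF, against 42.0% and 24.3% of all tested genes, after 6 rises and 6 falls from 17 to 21 WAF and 5 rises and 6 falls from 21 to 26 WAF. The whole list had sums of 301 to 304, 272 to 280, 374 to 398 and 810 to 821 FPKM at the 4 ages. Their leading gene LOC111385303 (ECERIFERUM 3-like) went from 264 ± 10.9 FPKM at 26 WAF to 567 ± 1.36 FPKM at 30 WAF, and 2 of the 34 were listed at 0 in all libraries. From 17 to 30 WAF 12 epidermis markers rose and 3 fell, against 34.9% and 38.9% of all tested genes. The falls included LOC111410556 (protodermal factor 1), from 28.6 ± 0.775 to 14.1 ± 0.852 FPKM. LOC111395983 (MERISTEM L1-like) fell from 7.10 ± 0.318 to 2.98 ± 0.402 FPKM, and LOC111395207 (PROTODERMAL FACTOR 2-like) from 9.01 ± 0.496 to 6.49 ± 0.257 FPKM. Seed markers, 8 detected of 23 with 4 listed at 0, summed to 288 to 301 FPKM at 17 WAF and 362 to 379 FPKM at 30 WAF. Between these ages 4 genes rose and 4 fell, against 34.9% and 38.9% of all tested genes. The sum was led by an oleosin gene (LOC111402449), a protein that oil-storing flesh may hold too, with 104 ± 6.11 FPKM at 17 WAF and 257 ± 6.95 FPKM at 30 WAF. Seed storage proteins went the other way, the vicilin-like LOC111393661 from 133 ± 1.87 to 64.7 ± 2.17 FPKM and the 2S protein LOC111397324 from 32.8 ± 1.58 to 6.97 ± 0.871 FPKM. The part of vessel, stone, epidermis and seed cells in the members' changes was not tested.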

How the data were processed

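Each of the 12 samples is a mesocarp library. The authors deposited 1 table of FPKM per gene and library, rounded to 2 decimals. Per the submitters' processing notes the tools were RSEM, Bowtie2 2.2.5, HISAT2 2.0.4 and StringTie 1.0.4, without their roles. The genome build is not given in the sources used here. FPKM are not counts: among 2220 genes with low values, 8.06 to 17.9% of ratios between libraries lay within 0.1 (log2) of the most frequent one, so counts were not recovered, the depth is unknown and no counting interval is given. All 94 matched genes are in the reference gene table, which gave the gene order.

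Genes listed at 1 FPKM or more by at least 3 libraries entered a limma fit (version 3.58.1, R 4.3.3) of log2(FPKM + 1) to a mean per age over 12 libraries (8 residual degrees of freedom) and a variance trend. The procedure was tested on simulated data. data.table (version 1.17.8), Python 3.11.15, pandas 2.3.3, numpy 2.4.6 and matplotlib 3.10.9 were used.

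The members and lists were chosen with earlier results of these data known. Named members are the 3 most abundant per enzyme group and, per comparison and direction, the 4 with the largest log2 change among those that passed with at least 5 FPKM in the higher age, and other lists are named by their most abundant gene. LOC111366180, LOC111376971, LOC111389230, LOC111370604, the 4 members that did not pass the F test, LOC111399734, LOC111410556, LOC111395983, LOC111395207, LOC111393661, LOC111397324 and the genes near or below the filter were named after their values were seen. The fit was repeated with TPM or median-of-ratios scaling, a pseudocount of 0.1, all genes unfiltered or those with a mean of 5 FPKM or more, library weights, the 2 ages alone, the letter as a replicate block, single libraries left out and 2 narrower member lists. The labels do not say whether the letters pair samples. Libraries of the same letter shared little beyond their age means (highest absolute same-letter correlation 0.08), which cannot exclude a pairing. Of the 55 members, 2 enter the counts and medians but are not reported here singly or drawn. Promoter and protein sequences were not analysed here.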

Additional observations from a re-analysis of the deposited data

How the results depend on the processing

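No member's call turned direction under any alternative run. From 26 to 30 WAF, 12 members fell with median-of-ratios scaling against 6 as deposited. The other counts of members moved by at most 1.5 times. The members' median log2 change moved in size but kept its sign. From 17 to 21 WAF (-0.184 as deposited) it was -0.247 with a pseudocount of 0.1, -0.242 with TPM scaling and -0.109 with median-of-ratios scaling. Over members whose KEGG entry is that of their enzyme group it was -0.237, and with 1 library left out -0.208 to -0.169. From 21 to 26 WAF (0.092) the same settings gave 0.105, 0.116, 0.165, 0.103 and 0.078 to 0.118, and library weights 0.097. From 26 to 30 WAF (0.366) they gave 0.461 with a pseudocount of 0.1, 0.335 with TPM scaling, 0.270 with median-of-ratios scaling, 0.328 with library weights and 0.281 to 0.382 with 1 library left out, lowest without library B of 26 WAF. From 17 to 30 WAF (0.327) TPM scaling gave 0.254, the KEGG-matched members 0.541 and single libraries left out 0.322 to 0.343. The causes were not tested. The narrower list by KEGG entry was chosen after seeing the data.

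With the replicate block, 46 of 47 calls from 17 to 30 WAF stayed, LOC111410227 being lost (log2 change 0.10, adjusted p = 0.054), and 1 or 2 calls were lost in each other comparison. LOC111410227 was also lost with TPM scaling (0.03, adjusted p = 0.59) and without library C of 17 WAF (0.09, adjusted p = 0.12). Whether the letters pair the samples is not given in the labels. Planned readings of promoter motifs and protein features were not run. With an unknown depth, values near 1 FPKM carry an error that these files do not show.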
